A study of Mus musculus with 8 samples.

Results

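Wwox, the gene for the WW domain-containing oxidoreductase, carried 70 of the 53761 H3K9me3 peaks (0.13%) found in mouse colon crypts. They were chosen by the gene name that the authors' annotation gives a peak, and as peaks they were selected on ChIP signal over input. H3K9me3, trimethylation of lysine 9 on histone H3, was measured by ChIP-seq in 3 libraries from WT mice and 3 libraries from mice with Vil-Cre-mediated KO of Smarcad1. All mice were C57BL/6 and the material was whole crypt isolate. Each genotype also had 1 input library, made from chromatin before immunoprecipitation. The Cre recombinase is driven by the villin promoter, which is active in intestinal epithelium, so other cells in a crypt isolate keep Smarcad1. The authors call their replicates biological, while the labels do not say whether libraries come from separate animals. The p-values measure the spread between these libraries only. The authors called 1 set of peaks from the 6 ChIP libraries pooled, so a region has a value only where the pooled signal exceeded input. Wwox was singled out with its KO and WT values already known. Its calls and fold changes between KO and WT are therefore given as a description of the gene.

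H3K9me3 is a mark of heterochromatin, bound by HP1 proteins and found over silent genes and repeated DNA. SMARCAD1 is an ATP-dependent chromatin remodeller of the Smarcad1/Etl1/Fun30 family that has been linked to the keeping of heterochromatin through DNA replication. WWOX is a tumour suppressor with WW domains that bind partner proteins and a short-chain dehydrogenase domain. Its gene is very long, mostly intron, and spans a common fragile site, a region that breaks when replication is slowed.

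In GRCm38, Wwox lies on the forward strand of chromosome 8 from 114439655 to 115352708, a length of 913.1 kb, and its principal transcript in the GENCODE vM21 annotation has 9 exons. All 70 peaks lay inside the gene body, and no other peak did. None overlapped an exon of the principal transcript. One peak, the fourth along the gene, overlapped an exon of another Wwox transcript. The first peak began 23.2 kb downstream of the start of the gene and the last ended 13.7 kb before its end, so no peak covered the promoter.

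The sequences below are the central 300 bases of a peak on the forward strand, read from the GRCm38 sequence, with every CpG dinucleotide in capitals. They are shown because, of CpG, GC and repeat content, CpG density varied most closely with the change in H3K9me3 at these peaks. The first belongs to the peak with the greatest increase in KO (peak 42, chr8:115110376-115110675) and holds 6 CpG. The next is from the peak nearest the start of the gene (peak 1, chr8:114463201-114463500) and holds 7. The last is from the peak with the highest WT level per kb among those of at least 1 kb (peak 35, chr8:114966301-114966600), which is also the peak with the lowest fold change. It holds 3.
Wwox peak 42: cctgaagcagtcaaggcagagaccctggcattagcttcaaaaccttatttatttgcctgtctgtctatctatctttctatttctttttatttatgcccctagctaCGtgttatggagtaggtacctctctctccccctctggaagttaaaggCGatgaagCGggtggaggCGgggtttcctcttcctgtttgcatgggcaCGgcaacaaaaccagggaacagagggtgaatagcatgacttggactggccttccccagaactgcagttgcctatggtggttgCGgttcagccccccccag
Wwox peak 1: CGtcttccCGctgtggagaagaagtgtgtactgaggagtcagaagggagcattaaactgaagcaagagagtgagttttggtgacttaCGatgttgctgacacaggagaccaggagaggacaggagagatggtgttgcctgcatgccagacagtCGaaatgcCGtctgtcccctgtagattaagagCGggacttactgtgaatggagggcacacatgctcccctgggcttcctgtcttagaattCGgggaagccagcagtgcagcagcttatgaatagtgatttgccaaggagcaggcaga
Wwox peak 35: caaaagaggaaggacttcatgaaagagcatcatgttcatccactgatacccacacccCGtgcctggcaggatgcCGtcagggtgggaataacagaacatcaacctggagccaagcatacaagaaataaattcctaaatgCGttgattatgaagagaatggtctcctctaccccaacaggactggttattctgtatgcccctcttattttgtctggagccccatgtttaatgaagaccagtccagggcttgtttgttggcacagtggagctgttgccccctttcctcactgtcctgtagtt

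H3K9me3 was higher in KO than in WT at most Wwox peaks, which together covered 17.3% of the gene. Each value is the log2 of the reads in a peak after the authors brought the 6 libraries to one distribution, and the mean over all peaks is 4.16 in every library. The mean over the 70 Wwox peaks was 3.94, 3.75 and 3.88 in the 3 WT libraries and 5.08, 5.47 and 4.75 in the 3 KO libraries. The groups did not overlap, and the lowest KO library was 0.81 above the highest WT library. The WT mean was 3.86 ± 0.10 and the KO mean 5.10 ± 0.36 (SD over 3 libraries each). They differed by 1.24 on the log2 scale, or 2.37-fold. WT libraries thus stood below the mean of all peaks at Wwox, and KO libraries stood above it. The pooled peak calls bear on this placement, since regions low in both genotypes have no value.

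At single peaks, 42 of 70 (60.0%) had more H3K9me3 in KO in limma's test fitted over all 53761 peaks (Benjamini-Hochberg adjusted p under 0.05, two-sided). Over all peaks, 428 passed as increased (0.796%) and 464 as decreased (0.863%). The count depended on the fit: 16 Wwox peaks passed with a variance prior that did not follow the mean level (112 increased and 15 decreased over all peaks), and 26 passed without KO replicate 2. The counts by size and position given next rest on the 42. No Wwox peak passed as decreased, none had a lower KO value at an unadjusted p under 0.05, and a limma voom fit of recovered reads also found 0 decreased. At an unadjusted p under 0.05, 55 Wwox peaks (78.6%) were higher in KO, and over all peaks 4.52% were higher and 6.06% lower. The fold changes of the 70 peaks ran from -0.20 to 3.06 on the log2 scale, with a median of 1.28, and 68 were above 0. Over all peaks the median was 0.0, and the range from the 5th to the 95th percentile was -0.64 to 0.61. All 3 KO values exceeded all 3 WT values at 51 Wwox peaks (72.9%), against 7.20% of all peaks. The Wwox peaks made up 9.81% of all increased peaks, and among 138 genes with an increased peak only Grip1 had more. This ranking is by count, which favours genes with many peaks. By share, most of the other genes with many increased peaks stood higher than Wwox. Grip1 (63 of 72 peaks, median log2 fold change 1.35) and Tcf4 (19 of 21, 2.08) were among them. So were Wwc2 (14 of 16, 1.75), Trio (9 of 10, 1.47), Cdyl2 (16 of 22, 0.97) and Cdyl (8 of 11, 0.96). Tshz2 (9 of 14, 1.41) and Ppm1l (8 of 13, 0.96) were also higher. Only 1700106N22Rik (13 of 22, 0.77) had a lower share among these genes.

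Of the 42 increased peaks, 13 rose by at least 2 on the log2 scale, 26 by 1 to 2 and 3 by less than 1, with a lowest value of 0.91. The threshold fell between peaks of similar size. The peak just inside it, at chr8:115320001-115320750, had a log2 fold change of 1.45 and an adjusted p of 0.0436 in limma. The one just outside, at chr8:114721651-114722250, had 1.80 and 0.0503. The 28 peaks that did not pass still had a median log2 fold change of 0.47. Their library means were 3.97, 3.98 and 4.06 in WT and 4.53, 4.88 and 4.17 in KO, so the groups stayed apart, though by less than at the 42 increased peaks (3.92, 3.60 and 3.75 in WT, and 5.45, 5.86 and 5.14 in KO).

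**Figure D1:**
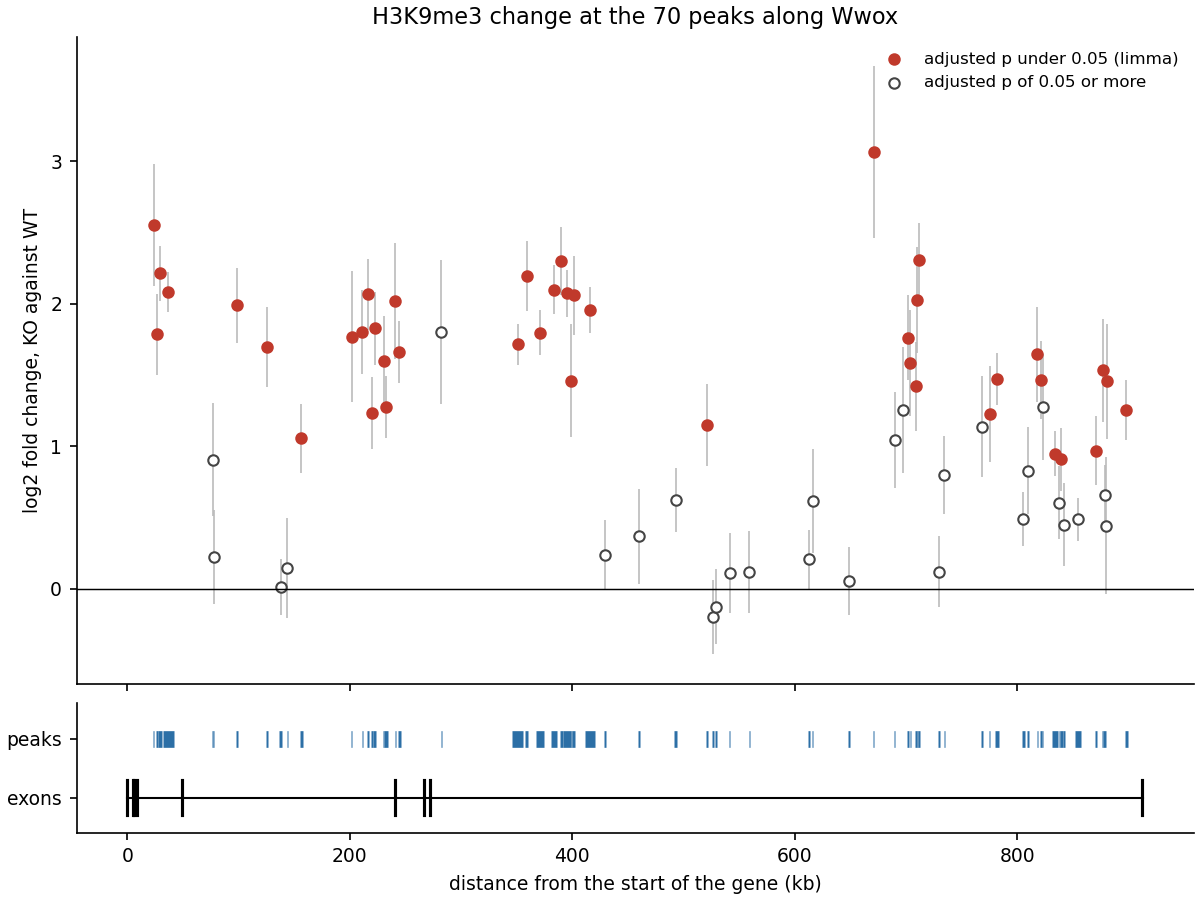
Upper panel, log2 fold change of KO against WT at each Wwox peak (vertical axis, lines are 1 SE from limma) by distance from the start of the gene in kb (horizontal axis); filled points passed an adjusted p under 0.05. Lower panel, extent of the 70 peaks (blue) and exons of the principal transcript (black). Increased peaks occur from the first peak to the last, with a stretch of 7 peaks between 526 and 649 kb that did not pass.

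The change was uneven along the gene. Peaks were found in 4 of the 8 introns. Intron 4 (40.56 kb) held 4 peaks that covered 40.3% of it, and all 4 were increased, with a median log2 fold change of 2.15. Intron 5 (190.8 kb) held 14 peaks with 10 increased and a median of 1.44. Intron 6 (26.32 kb) held 2, both increased. Intron 8, the long last intron (639.4 kb), held 50 peaks with 26 increased and a median of 1.19. Introns 1, 2, 3 and 7 held none, and the longest of them was 5.60 kb.

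With the gene cut into 3 equal parts, 16 of 21 peaks in the first part were increased (median log2 fold change 1.77), 10 of 17 in the middle part (1.46) and 16 of 32 in the last part (1.09). Increased peaks also came in runs. The longest was of 10 neighbouring peaks from 156 to 246 kb (median 1.72), and the next of 9 peaks from 346 to 420 kb (median 2.06). Between 526 and 649 kb, 7 neighbouring peaks did not pass, with a median of 0.11 and a range of -0.20 to 0.62. The difference between stretches was not tested.

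**Figure D2:**
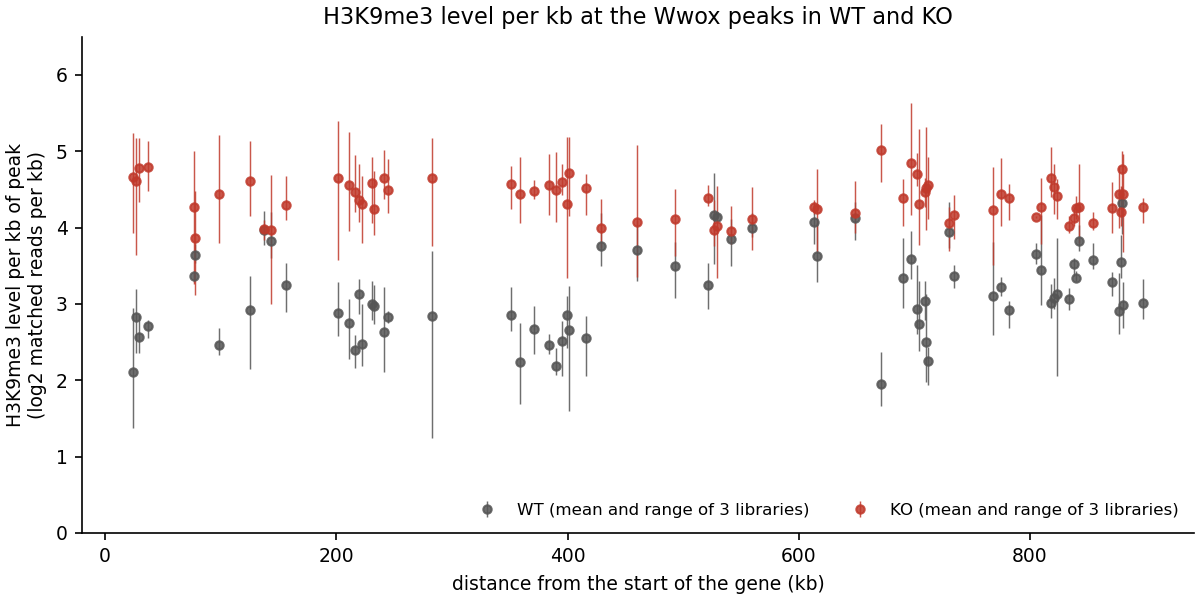
H3K9me3 level per kb of peak (vertical axis, log2 matched reads per kb) by distance from the start of the gene in kb (horizontal axis), as the mean (point) and range (line) of 3 WT (grey) and 3 KO (red) libraries. KO levels form a narrow band, and WT levels come closest to it between 526 and 649 kb. Regions low in both genotypes were not called as peaks and are not shown.

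Because peaks differ in width from 300 to 10200 bp, levels were compared between peaks per kb. The WT level per kb ran from 1.95 to 4.33 on the log2 scale (median 3.06), and the KO level from 3.86 to 5.02 (median 4.39). The median of all peaks was 3.97 in both genotypes. In WT, 63 of the 70 Wwox peaks were below that median, and in KO 66 were above it. The spread between Wwox peaks was 0.56 (SD over 70 peaks) in WT and 0.25 in KO, against 0.32 and 0.30 over all peaks. KO peaks were thus more alike along the gene than WT peaks, and the fold change followed the WT level closely (Pearson's r = -0.97, Spearman's rho = -0.97 over 70 peaks). That relation shares the WT values on both sides. The pooled peak calls also leave out regions that were low in both genotypes, which narrows the KO range where WT is low. The relation, the spreads and the counts below and above the median are therefore a description only.

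**Figure D3:**
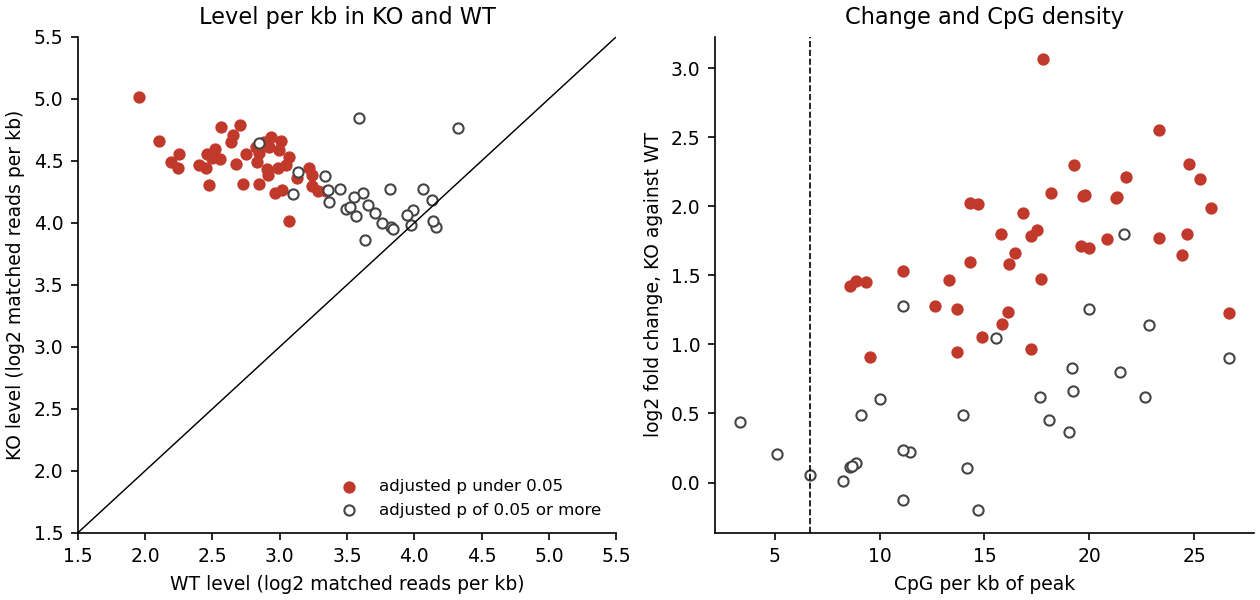
Left, KO against WT level of each Wwox peak, both in log2 matched reads per kb (the line marks equal levels). Right, log2 fold change against CpG per kb of the peak (the dashed line is the median of all peaks, 6.67). Filled points passed an adjusted p under 0.05 in limma; peaks with the lowest WT level lie furthest above the line, and 67 of 70 peaks lie right of the dashed line.

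Of the 42 increased peaks, the greatest change was at peak 42 in intron 8, a peak of only 450 bp (chr8:115110301-115110750). Its log2 values were 0.51, 0.68 and 1.22 in WT and 3.95, 4.20 and 3.44 in KO. These correspond to 1, 2 and 3 reads in WT and 13, 18 and 12 reads in KO. The lowest step of a library stands for 0 or 1 read, so the 1 may be 0. The groups were far apart, but on few reads. The log2 fold change was 3.06 ± 0.60 (SE, n = 3 per group; limma adjusted p = 9.6e-04). Without KO replicate 2 its adjusted p was 0.081, with a log2 fold change of 2.90.

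The wide peaks carried the most reads and had the smallest errors. The 8 peaks of at least 5 kb, of which 7 were increased, averaged 5.70 ± 0.15 in WT and 7.34 ± 0.20 in KO (SD, n = 3). The widest (peak 22, chr8:114785401-114795600, 10200 bp in intron 8) had 6.58, 6.00 and 6.03 in WT and 7.99, 8.16 and 7.59 in KO, a log2 fold change of 1.71 ± 0.15 (SE; limma adjusted p = 1.2e-12). Peak 4 (chr8:114471601-114481200, 9600 bp in intron 4) had 6.05, 6.04 and 5.82 in WT and 8.02, 8.39 and 7.75 in KO, a rise of 2.08 ± 0.14 (SE; limma adjusted p = 6.3e-16). At both, every KO library exceeded every WT library by about 1 or more on the log2 scale. Width alone did not order the changes, since 9 of 17 peaks under 1 kb and 26 of 45 peaks of 1 to 5 kb were also increased. Their groups had median log2 fold changes of 1.45 and 1.15.

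At the ends of the marked stretch the change was greater near the start of the gene. Peak 1 (chr8:114462901-114463800) had 2.80, 1.84 and 1.22 in WT and 5.09, 4.66 and 3.77 in KO, a log2 fold change of 2.55 ± 0.43 (SE; limma adjusted p = 6.7e-05). Peak 70, the last (chr8:115336201-115339050), rose by 1.25 ± 0.21 (SE; limma adjusted p = 5.3e-05). In the WT libraries peak 1 held only 6, 4 and 3 reads, and peak 70 held 19, 22 and 33. With a variance prior that did not follow the mean level, neither passed (adjusted p of 0.063 and 0.10). The difference between these 2 peaks was not tested. Peak 39 (chr8:115051801-115053750) had a WT level per kb of 4.07, high for Wwox (median 3.06) but near the 3.97 of all peaks. Its log2 values were 5.30, 4.75 and 5.04 in WT and 5.24, 5.33 and 5.14 in KO. Its groups overlapped, with a log2 fold change of 0.21 and an adjusted p of 0.80 in limma.

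Depth behind these values was low. The median Wwox peak held 14.0, 15.5 and 16.0 reads in the WT libraries and 25.5, 38.5 and 26.0 in the KO libraries, from read steps recovered for peaks of up to 100 reads. Over all peaks the medians were 15, 19 and 20 reads in WT and 14, 17 and 19 in KO. In WT, 27, 26 and 19 Wwox peaks had at most 10 reads, and in KO 6, 1 and 8 did. A change of modest size could therefore be missed at a narrow peak.

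The KO libraries differed more among themselves at Wwox than the WT libraries did. KO replicate 2 was the highest KO library at 56 Wwox peaks (80.0%), while over all peaks it was highest at 32.7%. KO replicate 3 was the lowest at 52 (74.3%), against 32.4% over all peaks. The order of KO libraries was thus much the same from peak to peak along the gene. Without KO replicate 2, 26 Wwox peaks passed as increased and the mean difference was 1.06, with 298 increased over all peaks.

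Input DNA over Wwox was about as abundant in KO as in WT. The Wwox peaks held 1525 WT and 1354 KO input reads. Relative to all peaks (733413 and 691770 reads) the KO to WT ratio was 0.941 (exact 95% interval 0.874 to 1.01, counting error only). It was 0.941 at the increased peaks and 0.942 at the others. Each genotype had 1 input library, so the ratio has no replicate error.

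Against input, Wwox moved from below the typical peak to above it. The ChIP minus input difference of the median Wwox peak lay 0.89, 1.20 and 0.88 below that of the median of all peaks in the WT libraries, and 0.39, 0.81 and 0.12 above it in the KO libraries. In WT, 8, 8 and 6 of the 70 peaks exceeded the median of all peaks, and in KO 54, 65 and 39 did. KO replicate 3 was closest to the typical peak and KO replicate 2 furthest above it, the same order as in the means. As with the means, the pooled peak calls bear on where Wwox stands in each genotype.

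Within 1 Mb on either side there were 18 further peaks, 13 before and 5 after it, of which 6 were assigned to Vat1l (a homologue of a vesicle amine transport protein) or Adamts18 (a secreted metalloprotease) and 12 to no gene. Their mean was 4.26 ± 0.11 in WT and 4.15 ± 0.05 in KO (SD, n = 3), and their log2 fold changes ran from -0.67 to 0.86 with a median of -0.11. None passed in either direction in limma or in the voom fit, against 0.796% increased and 0.863% decreased over all peaks, so with 18 peaks a count of 0 is near the background. At an unadjusted p under 0.05, 2 were higher (11.1%, against 4.52% of all peaks) and 1 lower (5.56%, against 6.06%). In WT the Wwox mean was thus below that of the flanks, and in KO above it. Regions low in both genotypes were not called as peaks, so this placement is a description only.

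**Figure D4:**
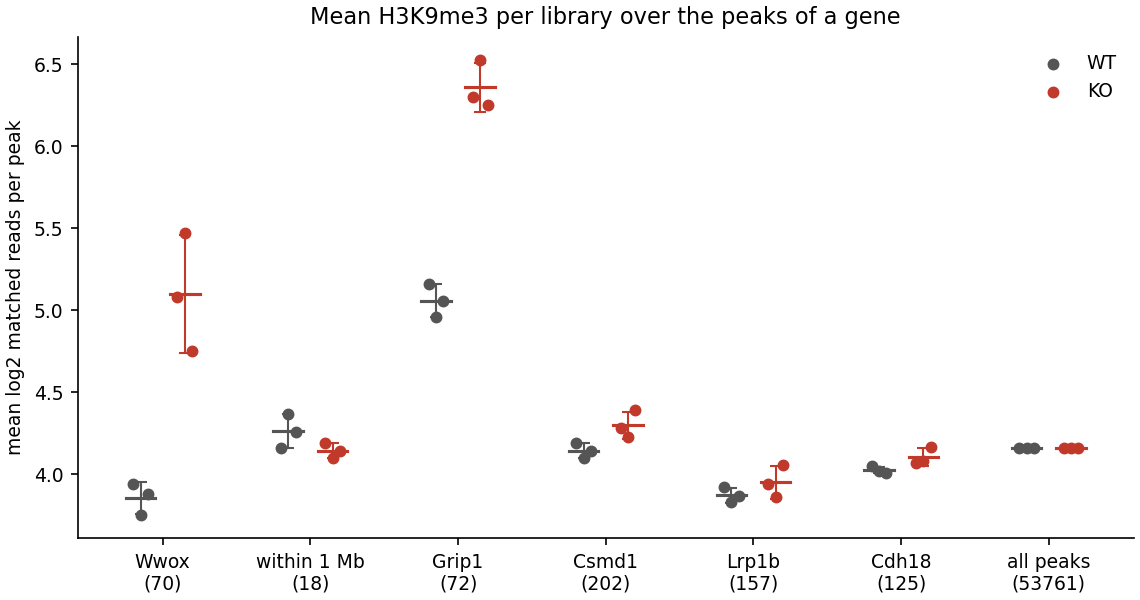
Mean log2 matched reads per peak in each WT (grey) and KO (red) library (points, with the mean and SD of 3 libraries) over the peaks of Wwox, its flanks, 4 other genes and all peaks. Among the groups shown, the KO and WT libraries lie furthest apart at Wwox and Grip1, with KO higher by 1.24 at Wwox.

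The Wwox peaks shared sequence properties that the choice of members did not use. Their median CpG density was 16.7 per kb (range 3.33 to 26.7), against 6.67 over all peaks, and 67 of 70 exceeded that median. The whole gene had 14.2 CpG per kb. The median GC content was 46.5%, against 41.9% over all peaks. Soft-masked repeats made up 18.4% of the median Wwox peak (range 0 to 53.0%), close to 21.0% for the whole gene and below the 37.8% of the median of all peaks. Only 5 of 70 Wwox peaks exceeded that repeat share. The increased peaks outside Wwox (386 peaks) had a median of 16.1 CpG per kb and 15.5% repeats, while the 464 decreased peaks had 8.30 and 39.4%.

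Among the Wwox peaks, the log2 fold change was higher where CpG was denser (Pearson's r = 0.55, Spearman's rho = 0.56 over 70 peaks) and was lower where repeats were more frequent (r = -0.34, rho = -0.31). For distance along the gene r was -0.29 and rho -0.34, for GC content r was 0.29 and rho 0.28, and for width r was 0.16 and rho 0.17. Neighbouring peaks share libraries and base composition, so these are descriptions. In the sequences printed above, the peaks with the greatest increase and the next greatest held 6 and 7 CpG in 300 bases, and the peak with the lowest fold change held 3. Over the whole peaks the densities were closer, at 17.8, 23.3 and 14.7 CpG per kb.

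At the 3 genes with the most peaks, 0.495% (Csmd1), 0% (Lrp1b) and 0% (Cdh18) of peaks were increased, against 0.796% of all peaks. Csmd1, a membrane protein of the complement-control family and the gene with the most peaks (202), had 1 increased peak and a median log2 fold change of 0.16. Lrp1b, a receptor of the LDL receptor family (157 peaks), had a median of 0.10, and Cdh18, a cadherin (125 peaks), one of 0.09. No peak of Lrp1b or Cdh18 passed as increased in limma or voom, while at an unadjusted p under 0.05 Lrp1b had 7 peaks higher and 3 lower, and Cdh18 6 higher and 2 lower. The higher peaks were 4.46% of those of Lrp1b and 4.80% of those of Cdh18, near the 4.52% of all peaks. The lower peaks were 1.91% and 1.6%, below the 6.06% of all peaks. Grip1, a scaffold protein of glutamate receptors that has a similar number of peaks (72), was added after its values were seen. It had 63 increased peaks and a median of 1.35, with means of 5.06 ± 0.10 in WT and 6.36 ± 0.15 in KO (SD, n = 3). Its peaks covered 69.6% of its length of 633.4 kb, and those of Wwox covered 17.3% of Wwox.

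Of 19 listed genes at other common fragile sites, 18 had a peak and together they had 651. Of these, 1 was increased (0.154%, in Csmd1) and none decreased in limma, against 0.796% and 0.863% of all peaks, and voom called 0. At an unadjusted p under 0.05, 25 were higher (3.84%, against 4.52% of all peaks) and 12 lower (1.84%, against 6.06%). Their median log2 fold change was 0.08, and the medians of single genes ran from -0.60 to 0.61. Both ends were genes with 1 peak (Dab1 and Dmd). The 651 peaks include the 202 of Csmd1 and 157 of Lrp1b described above. Of 11 listed genes whose proteins are known to bind WWOX or lie in its pathway, 3 had a peak. These were Erbb4, a receptor tyrosine kinase (2 peaks), Runx2, a transcription factor of bone (4 peaks), and Itch, a ubiquitin ligase (2 peaks). Among their 8 peaks, 1 at Runx2 was increased in limma (log2 fold change 0.93) and none decreased, against 0.796% and 0.863% of all peaks. Voom called 1 of the 8 as increased and 0 as decreased. At an unadjusted p under 0.05, 1 of the 8 was higher and 2 were lower, against 4.52% and 6.06% of all peaks. With only 8 peaks, these counts cannot be set firmly against those shares.

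Genes whose library means most resembled those of Wwox were sought by Pearson's r over the 6 libraries, among 488 genes with at least 5 peaks. The closest were 1700106N22Rik (r = 0.998), Wwc2 (0.997), Stox2 (0.997), Ppm1l (0.994) and Ppm1h (0.991). Wwc2 encodes a WW domain protein linked to Hippo signalling, and Ppm1l and Ppm1h encode protein phosphatases. With 77 of the 488 genes having all KO above all WT libraries, a high r is partly the genotype difference alone, and the genes were picked for sharing the library means of Wwox. At Wwc2 the means were 3.87, 3.71 and 3.74 in WT and 5.44, 5.85 and 5.08 in KO, and 14 of its 16 peaks were increased. At Stox2 they were 3.14, 2.67 and 2.86 in WT and 4.88, 5.28 and 4.22 in KO, with 8 of 11 peaks increased.

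The labels were checked at the villin gene, which the Cre transgene draws on. The single Vil1 peak held 133 WT input reads and 1111 KO input reads, as the labels imply for a transgene with villin sequence. Smarcad1 itself had no peak, so its deletion could not be read from these data. Expression of Wwox was not analysed here.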

How the data were processed

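H3K9me3 ChIP-seq of colon crypts was analysed in 3 WT and 3 KO libraries with 1 input library each. Per the sample notes and the study's methods, the authors trimmed reads with Trim Galore, mapped them to GRCm38 with Bowtie 2, removed duplicates and called MACS peaks once in SeqMonk over all ChIP libraries. Each peak was annotated with the closest gene within 5 kb. As deposited, ChIP values are log2 reads per peak that the authors matched to one distribution, which removes depth and any change common to most peaks. The deposited input values are log2 of whole reads, unscaled, with 0 for 0 or 1 read. A further deposited table, with p-values, FDR and fold changes of the authors' edgeR comparison, was not used.

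KO and WT were compared with limma 3.58.1 in R 4.3.3 on all 53761 peaks (genotype as the only factor, variance prior following the mean, two-sided), with a Benjamini-Hochberg adjusted p under 0.05, after a test on simulated data. Reads behind ChIP values were recovered from their steps for peaks of up to 100 reads, and the voom fit on them was added after seeing the data, as was Grip1. Gene models were from GENCODE vM21, and sequence, CpG and soft-masked repeats from GRCm38. Intervals are exact binomial at 95%. Other steps used Python 3.11.15 with pandas 2.3.3, numpy 2.4.6 and scipy 1.17.1.

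Wwox, the gene lists and the tests were chosen with earlier results of these data known. The peaks named were the 10 largest increases that passed, the widest, the first and last, those with the highest level per kb and those with the largest input ratio. Only some of these are described one by one. Alternatives were a prior without trend, centred libraries, only peaks whose mean log2 value was 4 or more, ChIP minus input, a replicate block, an adjusted p under 0.01, a log2 fold change of at least 1, and each replicate left out.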

Additional observations from a re-analysis of the deposited data

How the results depend on the processing

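The count of increased Wwox peaks was 42, and it was 16 with a variance prior that did not follow the mean level. Leaving out 1 replicate gave 26 to 41, the lowest without KO replicate 2, and 26 peaks passed in every such fit. It was 28 of 59 peaks tested by voom on recovered reads. The count of decreased Wwox peaks was 0 in every fit. Over all peaks, the prior without trend gave 112 increased and 15 decreased, and voom 256 increased. Decreased peaks numbered 221 at an adjusted p under 0.01, 200 with a log2 fold change of at least 1, and 199 to 453 with a replicate left out. The Wwox mean difference ran from 1.06 (without KO replicate 2) to 1.46 (ChIP minus input). The inputs are unscaled, and the median ChIP minus input over all peaks was 0.80 to 0.83 in WT and 0.90 to 0.92 in KO. The cause of the shifts between settings was not tested. The KO to WT input ratio, 0.941 from summed reads, was 0.848 as the median over the 51 Wwox peaks with at least 10 WT input reads, on the same scale relative to all reads. The filter is on WT reads alone, and the median over all peaks that pass it was 0.909. With the replicate number as a block, 42 Wwox peaks were increased (423 up and 449 down over all peaks) and the mean difference was 1.24. Libraries of the same number did not deviate together (r of 0.0, 0.02 and 0.02). Counting error at this depth could mask a pairing, so whether the numbers pair libraries is not known. Depth, at a median of 14 to 16 reads per Wwox peak in WT, limits what can be seen at narrow peaks, and 1 input library per genotype gives the input ratio no replicate error.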
